A study of Mus musculus with 4 samples.

Results

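The genes described here encode enzymes that activate, oxidise, elongate and desaturate fatty acids. They are the 65 genes, of 21755 protein-coding genes of GENCODE M21 on chromosomes 1 to 19 and X, whose symbols mark them as acyl-CoA synthetases (Acsl, Acsm), acyl-CoA thioesterases (Acot), carnitine palmitoyltransferases (Cpt1a, Cpt1b, Cpt1c, Cpt2), acyl-CoA dehydrogenases (Acad), acyl-CoA oxidases (Acox), the enzymes of the later steps (Echs1, Hadh, Hadha, Hadhb and the peroxisomal Ehhadh), auxiliary isomerases and reductases (Eci1, Eci2, Eci3, Decr1, Decr2), electron carriers (Etfa, Etfb, Etfdh), elongases (Elovl) or desaturases (Fads). The rule uses the symbol alone and no measured value. Symbols bring in some enzymes of neighbouring pathways: Acad8 and Acadsb act on branched-chain amino acids, and Acad9 is also an assembly factor of respiratory complex I.

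Acetylation of lysine 27 of histone H3 (H3K27ac), a mark of active regulatory DNA, was measured by ChIP-seq in adult heart tissue of female B6CASTF1/J mice, the F1 hybrid of a cross between the C57BL/6J and CAST/EiJ strains, at an age of 2 months. All 4 libraries belong to this 1 group: 2 pools of 2 heart samples each served as biological replicates, with 2 technical replicates per pool, with no second genotype, treatment, sex or age. The labels give both pools 1 and the same donor identifier, so a difference between them may be technical. The authors deposited peak lists without read numbers, so the depth is unknown, and 1 list per biological replicate allows no test.

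The tissue label was set against marker genes. A peak within 1 kb of a transcription start site (TSS) was present at 6 of 6 markers of cardiomyocytes, 4 of 4 of endothelial cells and 4 of 4 of fibroblasts. It was present at 2 of 4 smooth muscle markers and 1 of 5 adipocyte markers, and at 0 of 4 markers each of macrophages, hepatocytes and skeletal muscle. The skeletal muscle genes Myod1, Myh1, Myh2 and Myh4, the macrophage genes Adgre1 and Ptprc and the liver gene Alb had no peak within 50 kb, and the other macrophage and hepatocyte markers had peaks there but none at a start site.

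Fatty acids are the main fuel of the adult heart. A fatty acid is first activated to its acyl-CoA, passed into the mitochondrion as an acylcarnitine, and then shortened in a repeating spiral of dehydrogenation, hydration, a further dehydrogenation and thiolytic cleavage, with electrons leaving the first step through the electron transfer flavoprotein. Peroxisomes begin the oxidation of very long and branched chains, thioesterases release free fatty acids again, and elongases and desaturases of the endoplasmic reticulum build longer and unsaturated chains.

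The enzymes of mitochondrial oxidation carried acetylated promoters throughout, whereas promoters without a peak were found among the synthetases, thioesterases, elongases and single members of 3 other roles. A promoter peak, meaning a peak of the replicated list within 1 kb of any annotated TSS, was present at 50 of the 65 genes, or 76.9%, against 57.3% of all protein-coding genes. At the TSS of the most upstream transcript, the 5′ TSS, 46 had one, against 53.7%. All 21 genes of carnitine transfer, acyl-CoA dehydrogenation, the later steps and electron transfer had a peak at the 5′ TSS. At many of them the strongest promoter peak also lay at a TSS of another coding gene, as described below. The 15 genes without a promoter peak were Acsm1, Acsm2, Acsm3, Acsm4, Acot3, Acot4, Acot5, Acot10, Eci3, Acox2, Elovl2, Elovl3, Elovl4, Elovl7 and Fads6. Of the synthetases 60% had a promoter peak, of the thioesterases 69.2% and of the elongases 42.9%. Among these 3 roles only the elongases lay below the 57.3% of all genes. The tissue holds many cell types, and fewer cells with the mark cannot be told apart from less of it per cell. The members were set beside all genes as counts and medians only, since genes are not replicates and no test was made.

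The 2 pools gave nearly the same calls. A promoter peak was called at 50 members in the list of biological replicate 1 (55.7% of all genes) and at 51 in that of replicate 2 (58.4%). The call was the same in both lists for 62 members, and over all genes it was the same for 96.8%. Acot4, with a deposited fold of 3.62, and Eci3, with 3.57, were called at the promoter in replicate 2 alone, as were 2.96% of all genes. Acsl6 was called in replicate 1 alone, as were 0.267%. At the 5′ TSS the lists gave 45 members (52.1% of all genes) and 48 (54.8%). In the pooled list 50 members had a promoter peak (57.5% of all genes), among the stronger peaks of the replicated list, those at or above its median fold of 4.55, 46 had one (53.1%), and 49 had one in all 4 lists.

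Peak strength is the authors' own deposited fold, read as enrichment over a control, and folds are set side by side only within 1 list. For each gene the strongest promoter peak was taken. Its median fold over the 50 members was 16.8, against 13.2 over all genes with a promoter peak, whose quartiles were 8.48 and 18.7. Of the 50 members, 34 lay above that median and 20 above the upper quartile. The median width of the same peak was 1.49 kb, against 1.39 kb over all genes. Counting only peaks without another coding TSS within 1 kb, the median fold was 13.9 for members, against 12.3 over all genes. For the peak nearest to the 5′ TSS of each gene it was 14.5, against 12.2. The gap was thus smaller under both of these choices. The roles were unequal. By strongest promoter peak, the median fold was 25.4 for electron transfer and 23.0 for the later steps (21.0 with the shared Hadha and Hadhb peak counted once). It was 21.6 for carnitine transfer and 18.0 for the dehydrogenases. Among acetylated genes it was 16.7 for elongation, 16.1 for thioester hydrolysis, 14.1 for unsaturated chains and 12.4 for desaturation. It was 13.0 for the 6 acetylated synthetases and 12.3 for the 4 acetylated peroxisomal genes.

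**Figure D1:**
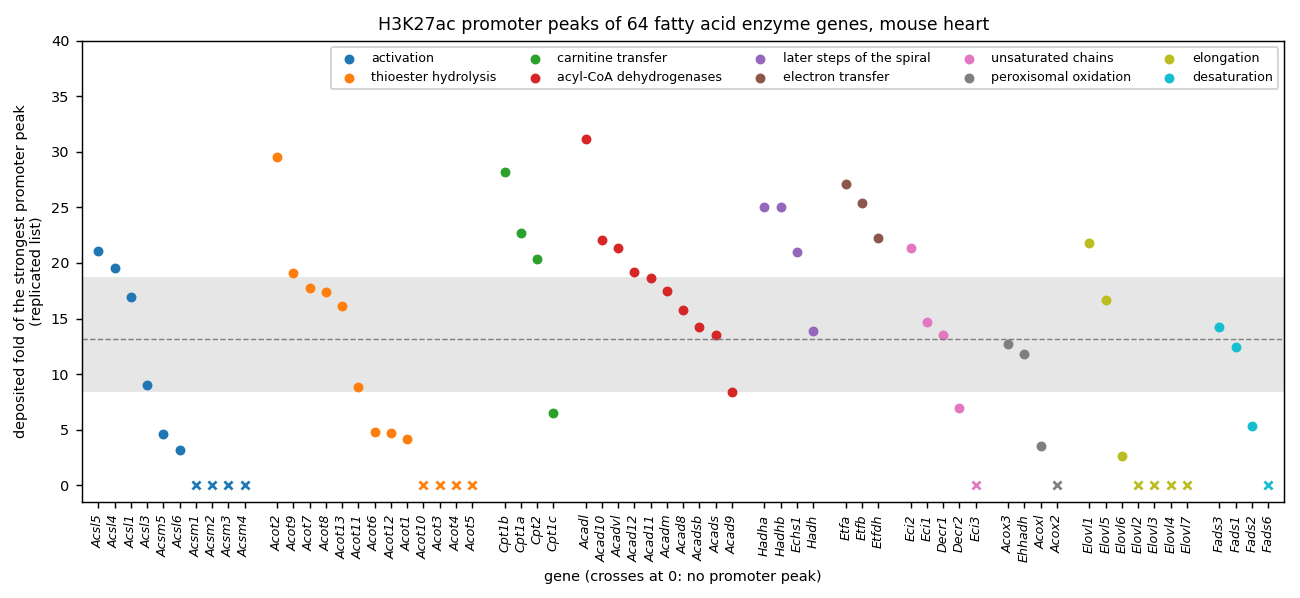
Deposited fold (vertical axis, no unit) of the strongest promoter peak in the replicated list for 64 of the genes, arranged by role, with crosses at 0 for the 15 genes without a promoter peak. The dashed line is the median over all genes with a promoter peak, 13.2, and the grey band spans the quartiles, 8.48 to 18.7. Acadl, Acot2 and Cpt1b stand highest.

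Carnitine transfer was acetylated at all 4 genes, against 57.3% of all protein-coding genes. Cpt1a and Cpt1b encode the liver and muscle forms of the outer-membrane enzyme that controls entry into the mitochondrion, Cpt1c a form known from brain, and Cpt2 the inner-membrane enzyme. The promoter peak of Cpt1a (chr19:3321340-3327084) was 5.75 kb wide, with a fold of 22.7 in the replicated list, 20.3 in the list of replicate 1 and 32.7 in that of replicate 2. Its summit lay 2.95 kb inside the gene. At Cpt1b the strongest peak in the promoter window (chr15:89426073-89430665, fold 28.2) had its summit 3.88 kb upstream, beside the neighbouring gene Chkb. A second peak (chr15:89423483-89425949), with a fold of 18.8 and a width of 2.47 kb, covered the TSS of Cpt1b itself. The first peak was 4.59 kb wide in the replicated list. In the list of replicate 1 it was divided into 2 peaks of 2.64 and 1.81 kb, and in that of replicate 2 a single peak of 7.25 kb spanned both. Cpt2 had a fold of 20.4 over 3.16 kb. Cpt1c had the weakest and narrowest peak of the 4, with a fold of 6.54 over 0.391 kb, although peaks in its 50 kb surroundings covered 12.6 kb, most of it at other genes' start sites, with 1 distal peak of 0.432 kb.

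All 10 acyl-CoA dehydrogenase genes had a promoter peak, against 57.3% of all genes, and Acadl, the long-chain enzyme, had the highest fold of all members. That peak (chr1:66861102-66864384) was 3.28 kb wide, with a fold of 31.1 in the replicated list, 27.1 in the list of replicate 1 and 39.5 in that of replicate 2. It ranked above 97.4% of genes with a promoter peak. The 250 bases before the Acadl TSS (chr1:66863310-66863559, minus strand, GRCm38.p6, from the RefSeq promoter table) are shown because this is the strongest member promoter. Capitals mark CpG pairs, which are dense towards the TSS.
Acadl: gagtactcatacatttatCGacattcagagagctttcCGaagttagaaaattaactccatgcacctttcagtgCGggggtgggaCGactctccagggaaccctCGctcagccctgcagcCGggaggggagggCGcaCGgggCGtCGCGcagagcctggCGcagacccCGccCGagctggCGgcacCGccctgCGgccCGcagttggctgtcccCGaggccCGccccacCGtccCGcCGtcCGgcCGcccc

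The other chain lengths followed below it. Acadvl, for very long chains, had a fold of 21.4, Acadm, for medium chains, 17.5 and Acads, for short chains, 13.6. The Acadm peak was the widest of the role at 4.96 kb, and its width was 4.92 kb in the list of replicate 1 and 4.99 kb in that of replicate 2. The less studied relatives Acad10, Acad12 and Acad11 had folds of 22.0, 19.2 and 18.6. Acad8 and Acadsb, of valine and isoleucine breakdown, had 15.7 and 14.3. Acad9 was lowest with 8.42, and this peak of 0.911 kb was the only one within 50 kb of the gene.

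The later steps of the spiral were acetylated at 4 of 4 genes, against 57.3% of all genes, and the widest member promoter peak lay here. Hadha and Hadhb encode the alpha and beta subunits of the mitochondrial trifunctional protein, which carries out the last 3 reactions on long chains. They stand head to head, 85 bases apart, and share 1 peak (chr5:30151206-30162699) of 11.5 kb with a fold of 25.1, the 37th widest of the 63061 peaks of the list. In the list of replicate 1 the part over the start sites was 7.00 kb wide with a fold of 19.1, and in that of replicate 2 it was 12.0 kb with a fold of 29.3. Echs1, the short-chain enoyl-CoA hydratase, had a fold of 21.0 over 1.84 kb, and Hadh, the 3-hydroxyacyl-CoA dehydrogenase of shorter chains, 13.9 over 2.33 kb. The bases between the Hadha and Hadhb start sites (chr5:30155163-30155247, plus strand, GRCm38.p6) are shown because both genes start from them within 1 peak. Capitals again mark CpG pairs, of which there are 9.
Hadha-Hadhb: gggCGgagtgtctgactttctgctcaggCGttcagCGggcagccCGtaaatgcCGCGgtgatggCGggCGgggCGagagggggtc

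Electron transfer was acetylated at 3 of 3 genes, against 57.3% of all genes. By their strongest promoter peak all 3 exceeded the upper quartile of fold over all genes with a promoter peak. Etfa and Etfb encode the 2 subunits of the electron transfer flavoprotein, and Etfdh the oxidoreductase that passes its electrons to ubiquinone. Etfa had a fold of 27.1 over 3.93 kb, Etfb 25.4 over 2.67 kb and Etfdh 22.3 over 1.30 kb. The summit of that Etfdh peak lay 0.95 kb inside the gene. A second peak, with a fold of 6.28 over 0.625 kb, covered the 5′ TSS of Etfdh. In the single-replicate lists the folds of Etfa were 15.4 and 35.8, those of Etfb 23.3 and 32.9, and those of Etfdh 17.2 and 26.1, so Etfa was the lowest of the 3 in one list and the highest in the other. The promoter of Etfa (chr9:55512244-55512493, minus strand, RefSeq, GRCm38.p6, 250 bases before the TSS) is given as the strongest of this role, with CpG pairs in capitals.
Etfa: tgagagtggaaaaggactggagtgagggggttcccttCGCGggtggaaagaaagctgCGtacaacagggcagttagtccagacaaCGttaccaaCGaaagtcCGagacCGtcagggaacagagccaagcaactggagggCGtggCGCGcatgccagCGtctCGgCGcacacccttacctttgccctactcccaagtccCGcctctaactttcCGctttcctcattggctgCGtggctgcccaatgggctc

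Unsaturated chains need an isomerase or a reductase to re-enter the spiral. Of these 5 genes 4 had a promoter peak, or 80%, against 57.3% of all genes. Eci1 and Decr1, the mitochondrial isomerase and dienoyl-CoA reductase, had folds of 14.7 over 5.07 kb and 13.5 over 1.74 kb. Decr2, the peroxisomal reductase, had 6.92 over 0.793 kb. Eci2, an isomerase of mitochondria and peroxisomes, and its neighbour Eci3 went apart. At Eci2 a peak with a fold of 21.4 (chr13:34993232-34995173) lay at an internal start site 32.8 kb from the 5′ TSS, where the fold was 3.89 over 0.219 kb. Eci3 had no promoter peak in the replicated list, and the only peak within 50 kb of it was that of Eci2. The 250 bases before the internal start site of Eci2 (chr13:34994282-34994531, minus strand, from the GRCm38.p6 genome) and before the RefSeq TSS of Eci3 (chr13:34963810-34964059, minus strand) are set side by side as neighbours with and without a peak. Both held 9 CpG pairs, in capitals, but their start sites came from different annotations, GENCODE for Eci2 and RefSeq for Eci3. In the longer RefSeq promoter windows compared below, Eci2 held 14 CpG pairs and Eci3 11. The equal count therefore holds only for the bases printed here.
Eci2: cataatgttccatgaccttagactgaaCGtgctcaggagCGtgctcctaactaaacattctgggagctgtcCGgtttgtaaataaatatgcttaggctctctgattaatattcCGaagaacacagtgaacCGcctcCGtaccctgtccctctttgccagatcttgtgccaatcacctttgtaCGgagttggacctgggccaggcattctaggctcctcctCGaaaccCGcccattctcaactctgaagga
Eci3: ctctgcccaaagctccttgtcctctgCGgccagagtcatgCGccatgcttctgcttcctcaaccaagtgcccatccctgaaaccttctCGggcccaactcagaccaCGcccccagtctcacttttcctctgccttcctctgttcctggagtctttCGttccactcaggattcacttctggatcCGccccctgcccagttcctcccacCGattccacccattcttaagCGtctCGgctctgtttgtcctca

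Activation was acetylated at 6 of 10 genes, or 60%, against 57.3% of all genes. Only 3 of them, Acsl1, Acsl3 and Acsl4, had a peak at the 5′ TSS, where the share of all genes was 53.7%. The Acsl enzymes activate long chains and the Acsm enzymes medium chains. Acsl1, the main long-chain synthetase of the heart, had a fold of 17.0 at its 5′ TSS and a second acetylated start site 19.9 kb inside with 8.93 over 2.39 kb. Acsl5 had the highest fold of the role, 21.1 in the replicated list, 19.0 in the list of replicate 1 and 23.9 in that of replicate 2, at a start site 1.43 kb inside the gene (chr19:55252997-55254370), and no peak reached within 1 kb of its 5′ TSS. Acsl4, which prefers arachidonic acid, had 19.5 just upstream of its 5′ TSS and 10.2 in a peak that covered another annotated TSS. Acsl3 had 8.98, in a peak that covered no TSS. Acsl6, best known from brain, had a narrow peak of 0.212 kb with a fold of 3.13 within 1 kb of a start site 9.88 kb inside, and the peak covered no TSS. The bases before the acetylated Acsl5 start site (chr19:55253119-55253368, plus strand, RefSeq, GRCm38.p6) hold 7 CpG pairs, in capitals.
Acsl5: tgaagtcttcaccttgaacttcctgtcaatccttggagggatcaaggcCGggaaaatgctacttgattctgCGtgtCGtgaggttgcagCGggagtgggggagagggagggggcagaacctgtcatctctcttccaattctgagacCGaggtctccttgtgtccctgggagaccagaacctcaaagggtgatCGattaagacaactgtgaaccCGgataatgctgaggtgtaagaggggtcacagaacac

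The 5 Acsm genes, which lie together on chromosome 7, were nearly bare. Their cluster (chr7:119519463-119787513, 268.1 kb) held 3 peaks covering 1.93 kb. Only Acsm5 had a promoter peak, with a fold of 4.63 over 0.550 kb at a start site 6.75 kb inside the gene and values of 4.75 and 6.24 in the lists of replicates 1 and 2. Acsm1 had no peak within 50 kb. The other 3 had 0.765 kb (Acsm2), 2.06 kb (Acsm3) and 1.16 kb (Acsm4) of peaks in their surroundings, none at a start site of theirs.

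Thioester hydrolysis was acetylated at 9 of 13 genes, or 69.2%, against 57.3% of all genes. The neighbours of the Acot1 to Acot6 cluster on chromosome 12 were uneven. Acot2, the mitochondrial enzyme of this cluster, had the second highest fold of all members, 29.6 in the replicated list, 25.03 in the list of replicate 1 and 34.2 in that of replicate 2, over 2.47 kb (chr12:83986837-83989306). Acot1, its cytosolic neighbour, had 4.21 over 1.02 kb, and Acot6 had 4.83 over 0.498 kb. Acot3, Acot4 and Acot5, which encode peroxisomal enzymes, had no promoter peak in the replicated list. The 6 genes span 123.5 kb (chr12:83987861-84111349), in which 6 peaks covered 3.98 kb. Promoters of Acot2 (chr12:83987611-83987860) and Acot3 (chr12:84051894-84052143), both on the plus strand of GRCm38.p6 and from RefSeq, are shown as paralogs with and without a peak. The 250 bases before the TSS held 6 CpG pairs at Acot2 and 1 at Acot3, in capitals.
Acot2: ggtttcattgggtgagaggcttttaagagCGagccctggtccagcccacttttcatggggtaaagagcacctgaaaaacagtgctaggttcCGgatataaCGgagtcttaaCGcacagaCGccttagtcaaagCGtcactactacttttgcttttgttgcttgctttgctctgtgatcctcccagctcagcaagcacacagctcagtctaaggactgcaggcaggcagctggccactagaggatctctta
Acot3: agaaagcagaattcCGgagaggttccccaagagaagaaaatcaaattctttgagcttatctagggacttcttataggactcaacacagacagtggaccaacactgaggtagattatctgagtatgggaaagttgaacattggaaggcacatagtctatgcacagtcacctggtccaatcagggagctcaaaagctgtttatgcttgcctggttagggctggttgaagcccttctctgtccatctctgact

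Outside that cluster the thioesterases Acot9, a mitochondrial enzyme on the X chromosome, Acot7, a cytosolic one abundant in brain, Acot8, a peroxisomal one, and Acot13 had folds of 19.1, 17.7, 17.4 and 16.1. The strongest peaks of Acot7 and Acot8 lay upstream of the 5′ TSS. At Acot8 the peak that covered the TSS had 8.80. At Acot7 no peak covered the 5′ TSS, and a peak with 10.3 covered a start site 7.63 kb inside the gene. Acot11 had 8.82 over 2.21 kb, with the summit 4.96 kb inside the gene. Acot12 had 4.74 over 0.445 kb. Acot10, which is closely related to Acot9, had no peak within 50 kb in the replicated list or in either single-replicate list.

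**Figure D2:**
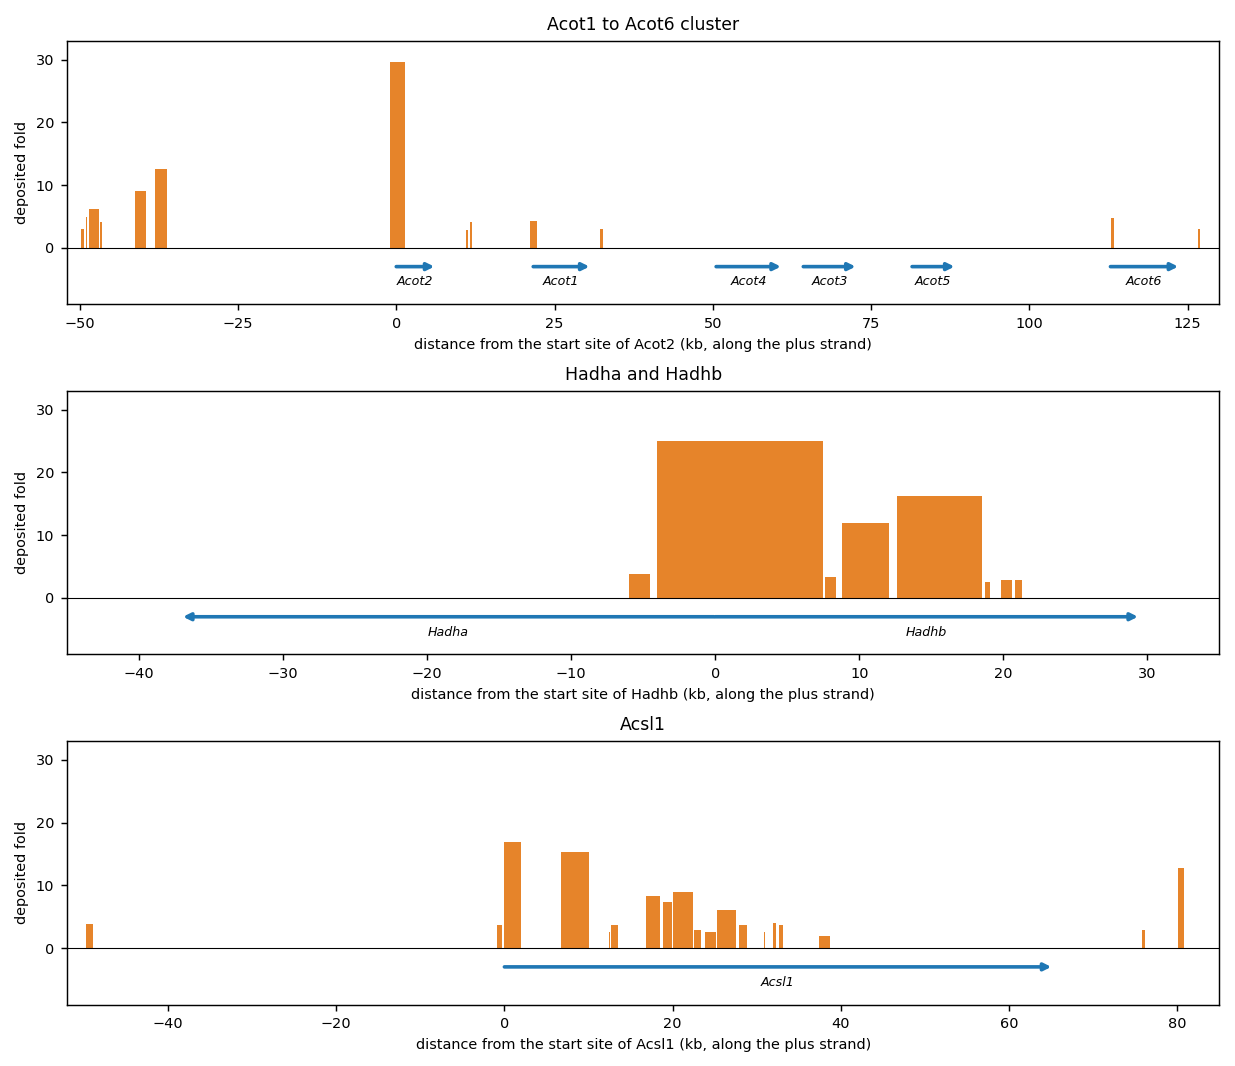
Peaks of the replicated list (orange bars, width to scale, height the deposited fold) along 3 loci, with distance from the named start site in kb on the horizontal axis and genes as blue arrows in the direction of transcription. The tall Acot2 peak stands at 0 kb with low or no peaks at Acot1, Acot3, Acot4, Acot5 and Acot6, 1 wide peak spans the shared Hadha and Hadhb start, and Acsl1 holds a row of peaks along its first part.

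Peroxisomal oxidation was acetylated at 4 of 5 genes, or 80%, against 57.3% of all genes. At the 5′ TSS 3 of them had a peak, against 53.7% of all genes. Acox3, an oxidase of branched chains, had a fold of 12.7, and Ehhadh, the bifunctional hydratase and dehydrogenase, 11.8. Acox2, the oxidase of bile acid intermediates, had no promoter peak and 2.41 kb of peaks in its surroundings. At Acoxl, the oxidase-like gene, a peak of 0.266 kb with a fold of 3.49 lay within 1 kb of an internal start site and covered no TSS.

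Among the 7 elongases 3 had a promoter peak, or 42.9%, against 57.3% of all genes, and these 3 were of very unequal strength. Elovl1, which extends saturated very long chains, had a fold of 21.8 over 2.24 kb, with 18.0 and 27.5 in the lists of replicates 1 and 2. Elovl5, which extends polyunsaturated chains, had 16.7 over 2.61 kb. Elovl6, which turns palmitate into stearate, had only 2.62 over 0.359 kb, the lowest fold of the 50 acetylated members, and that peak lay 1.22 kb inside the gene at its summit and covered no TSS. A stronger Elovl6 peak (chr3:129533794-129534527), with a fold of 7.01 and its summit 1.59 kb inside the gene, lay just outside the promoter window. Elovl2, Elovl3, Elovl4 and Elovl7 had none. Elovl1 (chr4:118427843-118428092, plus strand) and Elovl2 (chr13:41220404-41220653, minus strand), both from RefSeq on GRCm38.p6, are shown because the promoter without a peak is the one richer in CpG pairs: 49 against 18 in the 250 bases before the TSS.
Elovl1: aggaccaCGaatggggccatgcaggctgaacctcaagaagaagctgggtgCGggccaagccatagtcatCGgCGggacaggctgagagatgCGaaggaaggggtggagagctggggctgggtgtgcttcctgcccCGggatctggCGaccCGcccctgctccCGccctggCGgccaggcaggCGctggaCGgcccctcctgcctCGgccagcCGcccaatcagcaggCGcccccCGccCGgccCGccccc
Elovl2: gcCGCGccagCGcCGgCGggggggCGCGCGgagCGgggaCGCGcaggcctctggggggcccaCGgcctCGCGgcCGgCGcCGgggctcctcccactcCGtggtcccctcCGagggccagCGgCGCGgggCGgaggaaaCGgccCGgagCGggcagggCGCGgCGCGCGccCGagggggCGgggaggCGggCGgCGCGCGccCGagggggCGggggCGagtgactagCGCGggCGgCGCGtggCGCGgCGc

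Desaturation was acetylated at 3 of 4 genes, or 75%, against 57.3% of all genes. Fads1, Fads2 and Fads3 lie side by side on chromosome 19, where 17 peaks covered 12.1 kb of 155.3 kb. Fads3, a desaturase of sphingoid bases, had a fold of 14.3 over 3.72 kb, and Fads1, an enzyme of polyunsaturated chains, 12.4 over 1.91 kb. Fads2, which catalyses the first step of that pathway, had only 5.30 over 1.52 kb, and 2.57 and 7.04 in the lists of replicates 1 and 2, while 14 distal peaks stood in its surroundings. The windows of Fads2 and Fads3 overlap, so they share many of these peaks. Fads6, of unknown substrate, had no promoter peak and 5 distal peaks inside the gene with folds from 2.35 to 3.60. The Fads3 promoter (chr19:10041298-10041547, plus strand, RefSeq, GRCm38.p6) is printed as the strongest of the role, with its 26 CpG pairs in capitals.
Fads3: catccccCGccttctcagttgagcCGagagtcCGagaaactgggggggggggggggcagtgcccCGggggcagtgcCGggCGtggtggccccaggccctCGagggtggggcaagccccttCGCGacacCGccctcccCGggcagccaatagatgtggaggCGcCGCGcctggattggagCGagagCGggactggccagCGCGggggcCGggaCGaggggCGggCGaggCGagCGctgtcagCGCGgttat

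Many members have several start sites, and few had a peak at all of them. Start sites no more than 1 kb apart were joined, which gave 178 groups, of which 65 had a peak, against 34.0% of the groups of all genes. Of the 46 members with more than 1 group, 2 had a peak at every group (8.50% of all such genes), 39 at some (59.8%) and 5 at none (31.7%). Acoxl, Acsl5, Acsl6 and Acsm5 had a promoter peak but none at the 5′ TSS.

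Some member promoters are shared with other genes, so that the peak cannot be assigned to 1 of them. The strongest promoter peak lay within 1 kb of a TSS of another coding gene at 14 of the 50 members, against 22.8% of all genes with a promoter peak. Hadha and Hadhb shared theirs with each other. The other 12 shared it with genes outside the group, among them Acad10 with Brap, Acad8 with Thyn1, Acadsb with Ikzf5, Acot13 with Tdp2, Acot8 with Zswim3, Acsl3 with Utp14b, Cpt1b with Chkb and other annotated genes, Echs1 with Paox, Etfb with Gm45233 and Etfdh with 4930579G24Rik. Most of the 14 belong to the 21 genes of carnitine transfer, acyl-CoA dehydrogenation, the later steps and electron transfer. They are Acad8, Acad10, Acad11, Acadsb, Cpt1b, Echs1, Etfb, Etfdh, Hadha and Hadhb. Counting only peaks without another coding TSS, 39 members had a promoter peak, against 46.0% of all genes.

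The surroundings of each gene were described by the acetylated length, which is the sequence under peaks in a window that reaches 50 kb beyond either end of the gene. Its median over the 65 members was 5.52 kb, against 4.39 kb over all genes, and 38 members lay above that value. The window includes the gene itself, and members were longer genes, with a median length of 26.9 kb against 17.4 kb over all genes. No peak at all was found for 2 of the 65, against 20.9% of all genes. The same count was 2 in the list of replicate 1 (22.2% of all genes) and 2 in that of replicate 2 (20.3%). These lists gave medians of 4.67 and 6.95 kb, against 3.61 and 5.37 kb over all genes. Among genes with a promoter peak the members did not stand above the rest, with 7.94 kb against 7.96 kb. Members without a promoter peak had a median of 1.39 kb, against 0.265 kb over all genes without one, and none of the 15 exceeded 3.79 kb.

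Only 4 members exceeded 18.5 kb, the 90th percentile of all genes. Acot7 had 30.7 kb in the replicated list, 21.8 kb in the list of replicate 1 and 39.4 kb in that of replicate 2. Hadhb had 25.6, 21.2 and 26.6 kb, and Hadha, whose window is mostly the same, 25.4, 20.9 and 26.2 kb. Acsl1 had 21.5, 15.1 and 22.4 kb. The acetylated length was greater in the list of replicate 2 for 63 members and 0 in both for the other 2. The ratio of the lists had a median of 1.43 over the 63, ranged from 1.10 to 3.97, and was 1.42 at the median of all genes. Peaks of replicate 2 covered 1.49 times the length of those of replicate 1 over the whole genome, so the member values moved with the lists as a whole.

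**Figure D3:**
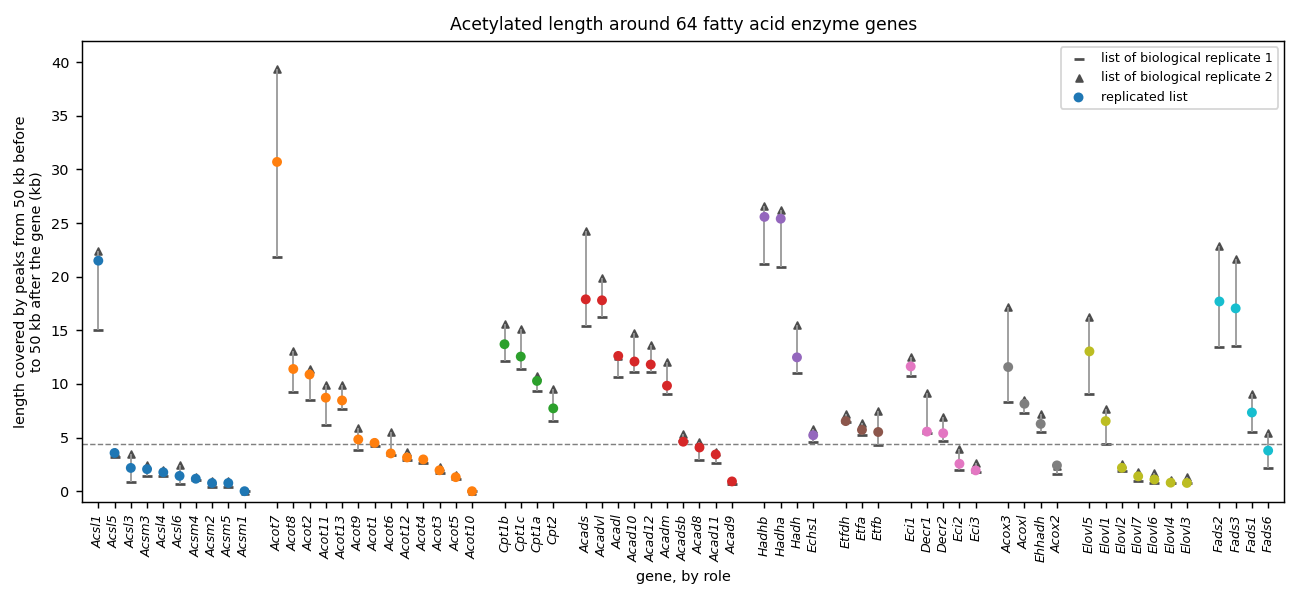
Acetylated length of 64 of the genes in kb, counted up to 50 kb beyond either end and arranged by role: dots are the replicated list, dashes the list of replicate 1 and triangles that of replicate 2. The dashed line is the median over all genes, 4.39 kb; Acot7, Hadhb, Hadha and Acsl1 stand highest, and triangles lie above dashes for every gene with any peak.

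By role, the median acetylated length was 18.9 kb for the later steps (12.5 kb with the shared Hadha and Hadhb locus counted once), 12.2 kb for desaturation, 11.4 kb for carnitine transfer and 10.8 kb for the dehydrogenases, and 8.15 kb for the peroxisomal genes. It was 5.72 kb for electron transfer, 5.41 kb for unsaturated chains and 4.51 kb for thioester hydrolysis. Activation, with 1.60 kb, and elongation, with 1.39 kb, had the shortest. Most peaks around Fads2, with 17.7 kb, and Fads3, with 17.0 kb, are the same, while Fads1 had 7.34 kb and Fads6 3.79 kb. The median for desaturation thus counts 1 locus for both genes, and its place among the roles is uncertain. Acad10, with 12.1 kb, and Acad12, with 11.8 kb, likewise share most of their peaks. The electron transfer genes were first in median promoter fold by role in the replicated list. In the list of replicate 1 Etfa had 15.4, Etfdh 17.2 and Etfb 23.3. There Echs1 had 18.5, Hadh 10.3 and the shared Hadha and Hadhb peak 19.1, so first place was not clear. In acetylated length the electron transfer genes were close to the median of all members: Etfdh had 6.54 kb, Etfa 5.72 kb and Etfb 5.52 kb. They had 3 distal peaks in all at Etfa and Etfdh and none at Etfb.

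Within the windows of the 65 genes lay 394 peaks. Of these, 77 stood at a member's start site, with a median fold of 10.3, and made up 28.6% of the covered length, while 130 stood at start sites of other genes and made up 37.9%. Acetylated length therefore includes the start sites of neighbouring genes. A further 156 peaks were distal, meaning more than 2.5 kb from any TSS, with a median fold of 3.85 and width of 0.511 kb, against 3.89 and 0.577 kb over the 37273 distal peaks of the list. At least 1 distal peak stood near 42 of the 65 members, against 56.2% of all genes. Of the 156, 67 lay inside a member, 61 of them in an intron.

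A few distal peaks were as strong as promoters. The strongest, 6.41 kb upstream of Elovl5 (chr9:77909170-77912364), had a fold of 27.3 over 3.20 kb, above that of the Elovl5 promoter. A peak 35.4 kb upstream of Acot11 (chr4:106838651-106841138) had 17.7, also above that gene's promoter. Inside Acsl1, 8.59 kb from the TSS (chr8:46477730-46481123), an intronic peak had 15.4 over 3.39 kb, and the gene held 9 distal peaks covering 9.83 kb. A peak with 14.6, inside another gene, stood 34.2 kb from the Acad12 TSS (chr5:121583822-121584992), and a peak inside Acot11 had 13.2 at 26.7 kb from its 5′ TSS. Acot7 held 15 distal peaks covering 15.4 kb, the strongest 68.3 kb from its 5′ TSS with a fold of 12.2. Hadhb had 11.9 at 10.1 kb from the start, Hadh 11.6 at 25.4 kb and 10.9 at 5.59 kb, Acads 10.7 upstream of the gene, and Decr1 10.5 at 6.83 kb. Each of these was also found in the list of replicate 1 and in that of replicate 2.

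Promoter sequence was compared over the RefSeq promoter table, 300 bases from 250 before to 50 after the TSS, which held 67 entries for 57 of the 65 members and 20061 entries in all (GRCm38.p6). Members not in it include Acad9, Acot13, Acot6, Cpt1b, Decr1, Elovl3 and Fads1. Entries of members with a peak had a median of 17 CpG pairs and those without 7, against 21 and 4 over all entries. Where the ratio of observed to expected CpG pairs exceeded 0.6, 24 of 29 member entries had a peak, or 82.8%, against 85.2% of all. At or below 0.6, 21 of 38 had one, or 55.3%, against 29.6% of all. Strong acetylation at few CpG pairs was found at Acot2 (10 pairs, fold 29.6), Acadvl (9 pairs, 21.4) and Acsl5 (9 pairs, 21.1). The reverse was found at Elovl2, with 45 and 56 pairs in its 2 entries, Elovl4, with 35, and Elovl7, with 30, none of which had a peak.

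**Figure D4:**
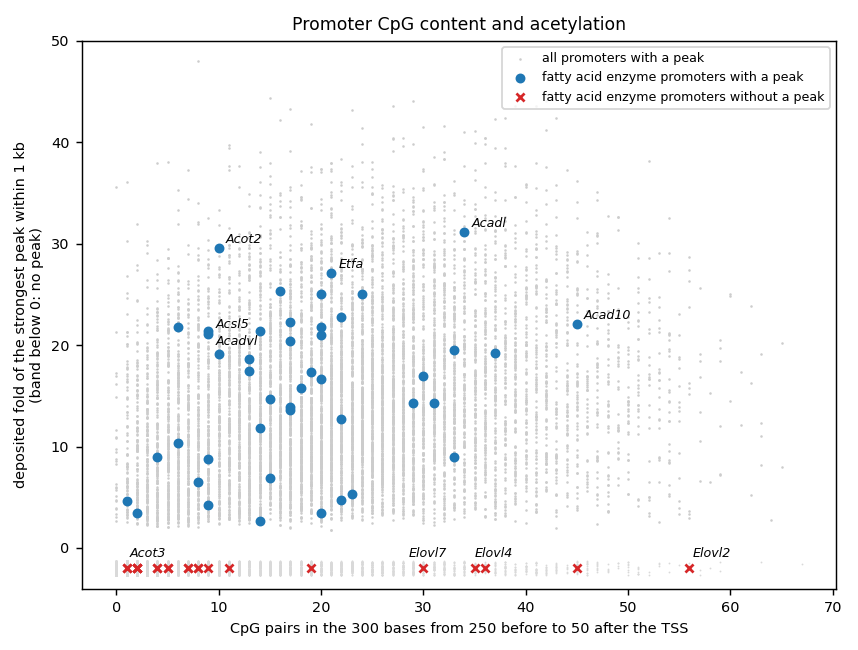
CpG pairs in the 300-base promoter window (horizontal axis) and deposited fold of the strongest peak within 1 kb (vertical axis) for RefSeq promoters, with members in colour and all promoters in grey; the band below 0 holds promoters without a peak. Acot2, Acsl5 and Acadvl stand high at 9 or 10 pairs, and Elovl2, Elovl4 and Elovl7 stand in the band at 30 or more.

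Letters bound by regulators of fatty acid oxidation were searched on both strands. The PPAR element (PPRE) was written as a pair of AGGNCA half-sites with 1 base between them, and the ERR element (ERRE) as TNAAGGTCA. The half-site AGGTCA can serve in both, so their matches can overlap. The PPAR letters were in 1 of 67 member promoter entries, or 1.49%, against 0.349% of all, and the ERR letters in 3 of 67, or 4.48%, against 1.04%. The match at Elovl1 (PPAR letters in capitals, chr4:118429598-118429626, plus strand) lay before an internal start site. The 3 entries with ERR letters were that of Acsl6 (chr11:54303649-54303673, plus strand) and the 2 overlapping entries of Acot5, and none of them had a peak. Around the summits of the 156 distal peaks, in 300 bases, the PPAR letters were found at 1 and the ERR letters at 5, or 0.641% and 3.21%, against 0.614% and 2.15% of all distal peaks. The single PPAR match (chr8:46504211-46504239) began 100 bases from the summit of an intronic Acsl1 peak with a fold of 3.70, just beyond the end of that peak, whose summit lay 33.1 kb from the TSS. The strongest peak with ERR letters had a fold of 6.92 and its summit 69.2 kb downstream of the Elovl5 TSS, with the match (chr9:77986398-77986422) before the summit. A match describes letters and does not show binding.
Elovl1 PPRE: ctaggcatTGACCTGTGGCCTggacccac
Acsl1 PPRE: tatttctcTGACCTCTGTCCTctccttgg
Elovl5 ERRE: tcacctgcTGACCTTAAcctcacca
Acsl6 ERRE: ctccaaccTGACCTTGAgcattctt

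Of the general promoter letters, the GC box GGGCGG was in 40 of 67 member entries, or 59.7%, against 48.0% of all, and CCAAT in 34, or 50.7%, against 37.9%. The ETS letters CCGGAAG were in 3, or 4.48%, against 11.9%. The NRF1 element, GCGC and TGCGC with 1 base between them, was in 5, or 7.46%, against 6.62%. The E-box CACGTG was in 5, or 7.46%, against 8.06%, and the YY1 letters ATGGCGG in 6, or 8.96%, against 5.39%. Among entries with a peak, the GC box was in 71.1% against 66.1%, CCAAT in 51.1% against 37.3% and ETS in 6.67% against 18.7%. There NRF1 was in 8.89% against 10.7%, the E-box in 6.67% against 10.1% and YY1 in 11.1% against 8.43%, so the order turned for NRF1. Around distal summits the MEF2 element, CTA and TAG with 4 bases between them, was in 4 of 156, or 2.56%, against 5.34%, the GATA letters AGATAA in 23, or 14.7%, against 15.6%, and the steroid receptor letters ACANNNTGT in 14, or 8.97%, against 10.3%. In 500 bases around the summits these shares were 8.97% against 10.2% for MEF2, 17.9% against 25.6% for GATA and 17.3% against 17.1% for the steroid receptor letters, so the order of members and all distal peaks turned for the last. These counts are small, and no test was made of them.

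Other genes of the pathway, 46 partners that the symbols above do not catch, were described in the same way. Their median promoter fold was 11.5, below that of the members and of all genes. A promoter peak was present at 38 of 46, or 82.6%, against 57.3% of all genes. The partners without one were the synthetases Acsbg1 and Acsbg2, the fatty acid transport proteins Slc27a2, Slc27a5 and Slc27a6, the desaturases Scd3 and Scd4 and the peroxisomal thiolase Acaa1b. Their median acetylated length was 6.77 kb. It was longest at Acacb, whose malonyl-CoA inhibits Cpt1, with 26.2 kb, followed by Crat, the carnitine acetyltransferase, with 25.3 kb, Acss1, the mitochondrial acetyl-CoA synthetase, with 21.8 kb, and the transport protein Slc27a1 with 19.7 kb. Across 30 genes of the citric acid cycle and pyruvate oxidation a promoter peak was present at 29, with a median fold of 18.8 and acetylated length of 5.09 kb, and across 72 genes of the respiratory chain at 71, with 18.9 and 6.53 kb. The 21 genes of carnitine transfer, acyl-CoA dehydrogenation, the later steps and electron transfer had a median fold of 21.0 and a median acetylated length of 10.3 kb. The 21 join the 4 roles in which every gene had a promoter peak. They leave out the mitochondrial Eci1 and Decr1, with folds of 14.7 and 13.5. Leaving out Acad8, Acadsb and Cpt1c gave 21.7 and 11.0 kb over 18 genes. Folds of these 3 were 15.7, 14.3 and 6.54, below the median of the 21, so the rise in fold follows from that choice. Acad9, with 8.42, was kept. Hadha and Hadhb, and Acad10 and Acad12, share most of their peaks, and the lengths count both genes of each pair. The window of a longer gene is longer, which limits these comparisons of acetylated length. The median gene length was 25.7 kb for the 21 genes, 24.4 kb for the cycle and 7.72 kb for the respiratory chain.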

How the data were processed

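H3K27ac was measured in 4 libraries of 1 group. Each deposited peak list gives positions on mm10, per the labels and file names, and was made by the authors after technical replicates had been joined, per the text deposited beside the libraries. The replicated list (63061 peaks) and the pooled list (63494) derive from both biological replicates, and 1 list each from replicate 1 (55831) and replicate 2 (61333). The deposited fold is the authors' ratio for a peak. It was used only within a list, and its reading as enrichment over a control rests on the order of columns of this format. For p and q the authors deposited −log10 values: the lowest −log10 p in the replicated list was 2.03, and 1332 of its peaks had q above 0.05. The deposited display score was not used. The deposited distance from peak start to summit placed the summit. The aligner or peak caller is not given in the sources used here, and neither is the number of reads. Whether variants of the CAST/EiJ strain affect the peaks was not tested.

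Genes, start sites and exons came from GENCODE M21. All 20061 RefSeq promoter entries matched the GRCm38.p6 genome exactly, and 57 of 65 members were matched by symbol. Counting was done in Python 3.11.15 with numpy 2.4.6 and pandas 2.3.3, figures in matplotlib 3.10.9. The counting was tested on simulated data: of 200 promoter peaks planted on chromosome 1, 200 were recovered, with 0 mismatches over 1208 genes. Members, gene lists, roles and motifs were chosen with earlier results of these data known. Any member could be named, but 1 member and 1 gene beside another are not reported here by name, although the counts and medians include them. Among partners the 4 with most acetylated length and all without a promoter peak were named, other genes only where they share a member's promoter peak or mark a cell type. The distal peaks given by name are those with a fold above 10 within 50 kb of a member. Promoters were printed for the strongest member of each role where that member had a RefSeq entry, and for a paralog without a peak. For the later steps the bases between Hadha and Hadhb were printed, and for Eci2 those before a GENCODE start site. None was printed for carnitine transfer or peroxisomal oxidation, whose strongest members had no RefSeq entry. The alternatives tried were the other peak lists, stronger peaks, a limit of 0.05 on q, promoter windows of 500 bp and 2.5 kb, peaks covering the TSS, unshared promoters, gene windows of 25 kb, 100 kb and the gene body, another choice of peak per gene and wider motif windows.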

Additional observations from a re-analysis of the deposited data

How the results depend on the processing

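Of 64 values recomputed under other settings, 55 stayed close to those reported and 9 moved. Close means within 1.5 times for a count, within 1 SD of the 2 single-replicate lists for a median, and within the 95% binomial interval for a share. The limit for medians comes from the same 2 lists that it also judges. For the counts of promoter peaks, 1.5 times lies above the number of genes, so a rise could not exceed it. The tally of 55 is therefore no measure of robustness, and the values themselves follow. The number of members with a promoter peak ranged from 50 to 51 over the lists of the single replicates, that at the 5′ TSS from 45 to 48, that of partners from 38 to 38 and that of members without any peak from 2 to 2. The median fold ranged from 13.7 to 19.9, on scales that differ between lists, the median promoter peak width from 1.31 to 2.14 kb, and the median acetylated length from 4.67 to 6.95 kb for members and from 5.18 to 7.81 kb for partners. The width of 2.14 kb belongs to the list of replicate 2, whose peaks are wider. The gene window set the acetylated length by construction. With 100 kb either side the median was 10.3 kb for members (8.38 kb over all genes) and 11.0 kb for partners, with 25 kb it was 4.66 kb for partners, and within the gene body it was 1.27 kb for members (0.614 kb) and 1.30 kb for partners. The gene bodies themselves were longer for members, with a median of 26.9 kb, and partners, with 31.3 kb, than over all genes, with 17.4 kb. Members without any peak numbered 6 with 25 kb (26.2% of all genes), 1 with 100 kb (15.7%) and 14 within the gene body (39.6%). When peaks had to cover a TSS, 46 members had a promoter peak (51.9% of all genes) and 37 at the 5′ TSS (41.5%). Leaving out the 20 members whose windows overlap that of another member, a choice made after seeing the data, left a promoter peak at 38 of 45 and a median of 5.72 kb. No paired analysis was possible because there is 1 group and the lists give no value per library. Depth is unknown, so a start site without a peak has no peak at the authors' thresholds and is not shown to be free of the mark.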
